A study of Mus musculus with 6 samples.

Results

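Translation factors and aminoacyl-tRNA synthetases were compared between ileal crypts of Tl1a-transgenic mice (Tl1a-tg, 3 libraries) and wild-type mice (WT, 3 libraries). A gene was taken as a member by its symbol alone: Eif or Eef followed by a digit, a capital letter followed by ars or ars2, or Eprs, Naca or Btf3. The rule found 67 of the 7120 genes in the authors' table, of which 49 were translation factors and 18 were tRNA synthetases. All mice were C57BL/6 and 3 months old, and Tl1a-tg mice carried a transgene for TL1A, a cytokine related to tumour necrosis factor. The promoter that drives the transgene is not given in the sources used here. Crypts, the pockets of the intestinal epithelium that hold stem cells and Paneth cells, were cut out of fixed ileum with a laser. Nothing in the labels says that libraries of the same genotype came from separate mice, so any p-value may measure technical spread only.

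Translation starts when eIF2 brings the initiator tRNA to the small ribosomal subunit and eIF4 factors load the mRNA by its cap, with eIF3 as the scaffold between them. Elongation factors then deliver each charged tRNA and move the ribosome along, and the synthetases charge each tRNA with its amino acid. Crypts contain secretory cells that make large amounts of protein, so these genes serve a high demand there.

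For each gene the authors' table gives a fitted mean of the genotype, scaled by a factor for each library. Values of single libraries therefore stand in the same ratio for every gene and show no spread between replicates. In Tl1a-tg replicates 1 to 3 this factor was 1.01, 1.10 and 0.781, and in WT replicates 1 to 3 it was 1.34, 0.591 and 1.46. Fitted means are given below as reads in a library of average depth among the 6, and a genotype whose mean lay at the floor of the fit or near 0 is said to have no reads. Genes with a fitted mean of at least 10 in Tl1a-tg and in WT are called measured in both. Summed over genes, the table's values came to between 376022 and 530625 for a Tl1a-tg library and between 314186 and 774249 for a WT library, which are not read depths. At average depth the ribosomal RNA gene Rn45s held 127754 of 481136 in Tl1a-tg and 153823 of 530849 in WT. Paneth cell markers summed to 21633 in Tl1a-tg against 24236 in WT, and all 5 had reads in both genotypes. Some markers of other epithelial cells were alike: the goblet cell marker Muc2 had 12552 in Tl1a-tg against 13390 in WT, Krt8 255 against 210, and the stem cell marker Olfm4 677 against 679. Others went both ways: Epcam had 213 in Tl1a-tg against 62.2 in WT, Cdh1 242 against 538, the stem cell marker Lgr5 131 against 1 read (DESeq2 adjusted p 0.23), and the enterocyte marker Vil1 138 against 12.6. The WT reads of Epcam were solved, as described below, to 249 reads in replicate 1. The 2 enterocyte markers listed summed to 218 in Tl1a-tg against 57.6 in WT, and the 2 stem cell markers to 808 against 680. Of 26 fixed markers of other cells, 8 were listed, and they summed to 81.5 in Tl1a-tg against 136 in WT, with Cd8b1 in WT (128) and Col1a1 in Tl1a-tg (60.5) as the main ones and Acta2 and Dcn without reads. The part of these markers' cells in the results was not tested. Tnfsf15, the gene for TL1A, had no reads in either genotype, so the genotype labels could not be checked with it.

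Of the 49 translation factors, 20 were measured in both genotypes and 8 had reads in Tl1a-tg only, while another 8 had reads in WT only. A further 9 had reads in both genotypes with a mean below 10 in at least 1 of them, and 4 had no reads: the stress kinase gene Eif2ak3, Eif2b5 of the exchange factor of eIF2, the eIF3 subunit gene Eif3k, and Eef1a2, the form of eEF1A known from muscle and nerve. Of the 18 synthetases, 10 had reads in Tl1a-tg only, 2 had reads in WT only, 5 were measured in both and 1 was low in WT. Among genes with any read, reads in Tl1a-tg only thus made up 17.8% of factors and 55.6% of synthetases, against a background of 38.2% of all genes with any read. Reads in WT only made up 17.8% of factors and 11.1% of synthetases, against 19.9% of all genes. Measured in both were 44.4% of factors and 27.8% of synthetases, against 23.6% of all genes. In these bulk samples fewer cells of a type and less RNA per cell cannot be told apart.

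**Figure D1:**
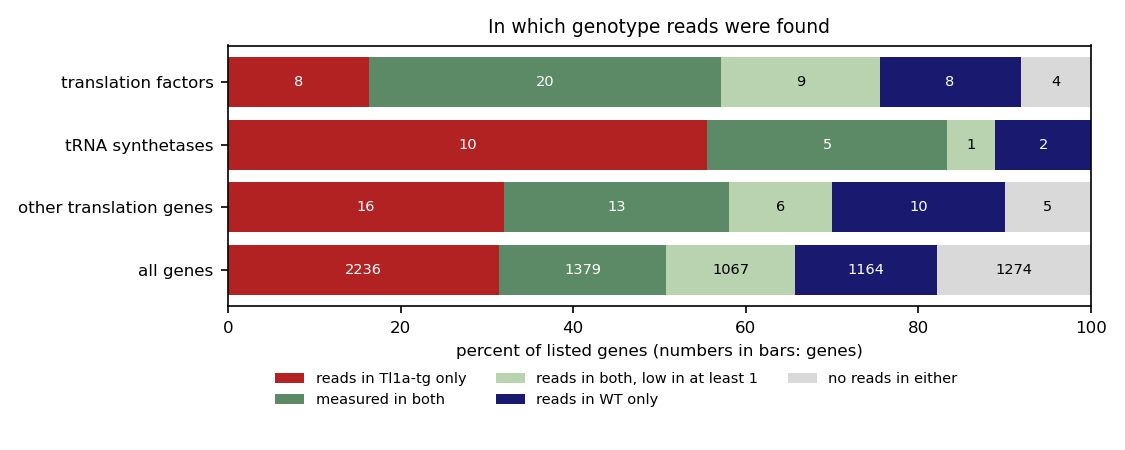
Percent of listed genes by the genotype in which reads were found, for 49 translation factors, 18 tRNA synthetases, 50 other translation genes and all 7120 genes, with numbers of genes in the bars. Reads in Tl1a-tg only were found for 10 of 18 synthetases and 8 of 49 factors, against 2236 of all 7120 genes.

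By the authors' deposited DESeq2 table, 1 synthetase was called higher in Tl1a-tg crypts (Vars) and 1 factor lower (Naca) at an adjusted p below 0.05. The background was 3.67% of the 1662 genes with an adjusted p, with 2.47% called higher and 1.2% called lower. An adjusted p was given for 24 factors and 4 synthetases. Vars, valyl-tRNA synthetase, reached a fitted mean of 114 in Tl1a-tg against no reads in WT, and its deposited adjusted p was 6.15e-06 by DESeq2. Naca, the alpha subunit of the complex that shields nascent chains at the ribosome exit, had no reads in Tl1a-tg against a fitted mean of 94.8 in WT, with a deposited adjusted p of 1.02e-06 by DESeq2. The deposited log2 fold changes of 21.66 (SE 4.01) for Vars and -22.94 (SE 3.82) for Naca set a mean against a value near 0, depend on the fitting procedure and are no bounds. With the near-0 mean moved to the floor that other genes without reads received, both log2 fold changes shrank, to 9.34 for Vars and -8.94 for Naca. The adjusted p recomputed from the deposited DESeq2 standard errors was then 0.248 for each, and no gene of the table passed.

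At an unadjusted p below 0.05 in the authors' deposited DESeq2 table, 3 factors were higher (Eif3a, Eif2s3x and Eif1) and 3 lower (Naca, Eif3c and Eif5), and 1 synthetase was higher (Vars). A p-value was given for 26 factors and 4 synthetases. The background at that threshold was 14.6% of the 2580 genes with a p-value, 10.7% higher and 3.91% lower. Apart from Naca and Vars, none of these passed after adjustment.

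The eIF4 group, which recruits mRNA by its cap, was the largest, and 7 of its 15 members were measured in both genotypes. This share was near the 44.4% of all factors with reads. It was 3 of 4 for eIF5 and eIF6 and 3 of 6 for elongation factors. Eif4g2, a scaffold protein that lacks the cap-binding partner's site, reached a fitted mean of 405 in Tl1a-tg against 245 in WT. The RNA helicase Eif4a1 had 214 in Tl1a-tg against 148 in WT, and its paralog Eif4a2 had 117 in Tl1a-tg against 34.5 in WT. Eif4g1, the main scaffold, had 182 in Tl1a-tg against 97.2 in WT. All 4 had the higher mean in Tl1a-tg, by less than the SE of the log2 fold change. Eif4ebp2, which binds and represses the cap-binding protein, had 194 in Tl1a-tg against 115 in WT. Eif4e2, a cap-binding protein that competes with the main one, had 133 in Tl1a-tg against 93.9 in WT, and the helicase cofactor Eif4h had 46.6 in Tl1a-tg against 30.7 in WT. All 7 measured eIF4 genes had a positive log2 fold change, between 0.51 and 1.76, and none passed the test: a p-value was given for 5 of them, and the lowest was 0.712 by DESeq2. Centred on the median of all genes with a mean of at least 10 (0.66), 4 of the 7 remained positive, and scaled to equal totals without ribosomal RNA all 7 did. Centred on the median of all genes measured in both (-0.38), all 7 were positive as well. Of all 1379 genes measured in both, 512 had a positive log2 fold change.

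Other eIF4 genes were seen in only 1 genotype or nearly so. Eif4a3, a helicase of the exon junction complex, had 3.46 in Tl1a-tg against 143 in WT (log2 fold change -5.37, SE 3.39, DESeq2 adjusted p 0.362). Eif4b, another helicase cofactor, had 46.3 in Tl1a-tg against 0.758 in WT (log2 fold change 5.93, SE 3.59, DESeq2 adjusted p 0.339). Both 95% intervals span 0. Eif4ebp1, which represses the cap-binding protein as Eif4ebp2 does, had 82.3 in Tl1a-tg against no reads in WT, and the scaffold gene Eif4g3 had 22.4 in Tl1a-tg against no reads in WT. Eif4enif1, whose protein carries the cap-binding protein into the nucleus, had no reads in Tl1a-tg against 143.5 in WT, and Eif4e3, an atypical cap-binding protein, had no reads in Tl1a-tg against 50.4 in WT. Eif4ebp3, a further repressor of the cap-binding protein, had 1 read in a WT library, and Eif4e1b, known from the oocyte, had no reads in Tl1a-tg against 0.517 in WT.

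In the eIF2 group, 1 of the 3 subunits of eIF2 itself was measured in both genotypes. Eif2s1, the alpha subunit whose phosphorylation slows initiation, had no reads in Tl1a-tg against 67.0 in WT. Eif2s2, the beta subunit, had 21.5 in Tl1a-tg against 30.6 in WT. Eif2s3x, the gamma subunit encoded on the X chromosome, had 62.5 in Tl1a-tg against no reads in WT (DESeq2 adjusted p 0.23). Of the kinases that phosphorylate the alpha subunit, Eif2ak1 had 60.7 in Tl1a-tg against no reads in WT, while Eif2ak2 had 0.621 in Tl1a-tg against 64.5 in WT. Eif2b2, a subunit of the factor that reloads eIF2 with GTP, had 31.0 in Tl1a-tg against 117 in WT. Eif2a, a separate initiation factor and not the alpha subunit, had no reads in Tl1a-tg against 111 in WT, and Eif2d, another factor that can deliver initiator tRNA, had 50.2 in Tl1a-tg against 43.0 in WT. Of the 4 deposited DESeq2 p-values in the group, that of Eif2s3x was 0.0159 before adjustment and the others were above 0.05.

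The eIF3 scaffold showed the same mixture. Eif3a, its largest subunit, had 144 in Tl1a-tg against no reads in WT (log2 fold change 9.67, SE 4.02, DESeq2 adjusted p 0.23). Eif3c, another core subunit, had 1 read in a single Tl1a-tg library and a fitted mean of 139 in WT (log2 fold change -8.53, SE 3.74, DESeq2 adjusted p 0.23). These core subunits thus lacked reads, but for that 1 read, in opposite genotypes. The subunits measured in both were Eif3b with 75.8 in Tl1a-tg against 121 in WT, Eif3f with 47.5 in Tl1a-tg against 81.6 in WT, and Eif3j2 with 27.4 in Tl1a-tg against 87.3 in WT. Their log2 fold changes lay between -1.67 and -0.68 with SE of 3.50 to 4.25, so that none is distinguishable from 0. Eif3j2 is uncertain, since its longest transcript matched that of Eif3j1 over 2379 bases at 99.4% identity and reads of the pair can be assigned to either. Eif3i had 29.9 in Tl1a-tg against no reads in WT, Eif3m had 0.375 in Tl1a-tg against 18.7 in WT, and Eif3h had 3.04 in Tl1a-tg against 0.766 in WT.

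Of the factors that set the start site, Eif1, which guards start codon choice, had 80.3 in Tl1a-tg against 2.30 in WT (log2 fold change 5.12, SE 2.61, DESeq2 adjusted p 0.232). Eif1ax and Eif1a both encode eIF1A, and their transcripts matched over 461 bases at 84.4% identity. Eif1ax had 109 in Tl1a-tg against 50.7 in WT, and Eif1a had 75.3 in Tl1a-tg against no reads in WT. Eif5, which triggers GTP hydrolysis by eIF2, had 0.642 in Tl1a-tg against 174 in WT (log2 fold change -8.09, SE 3.78, DESeq2 adjusted p 0.23). Eif5a, which relieves stalled ribosomes, had 135 in Tl1a-tg against 284 in WT. Eif5b, which joins the ribosomal subunits, had 79.8 in Tl1a-tg against 66.7 in WT, and Eif6, which keeps them apart, had 26.6 in Tl1a-tg against 53.9 in WT. The smallest deposited p-value among these last genes was 0.726 by DESeq2.

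Per kilobase of transcript, the elongation factors Eef1a1 and Eef2 had the highest levels of all factors in both genotypes. Eef1a1, which delivers charged tRNA to the ribosome, reached a fitted mean of 902 in Tl1a-tg against 1172 in WT (log2 fold change -0.38, SE 1.80, 95% interval -3.91 to 3.16). Eef2, which moves the ribosome by a codon, had 498 in Tl1a-tg against 689 in WT (log2 fold change -0.47, SE 1.90, 95% interval -4.19 to 3.26). Together they made up 33.5% of all factor means in Tl1a-tg and 39.3% in WT. Eef1g, of the complex that reloads eEF1A, had 120 in Tl1a-tg against 114 in WT. Eef1b2 of the same complex had no reads in Tl1a-tg against 48.7 in WT. Eef2k, the kinase that inhibits eEF2, had 150 in Tl1a-tg against 1.63 in WT (log2 fold change 6.53, SE 3.86, DESeq2 adjusted p 0.319). Btf3, the partner of Naca in the nascent chain complex, had 0.724 in Tl1a-tg against no reads in WT.

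**Figure D2:**
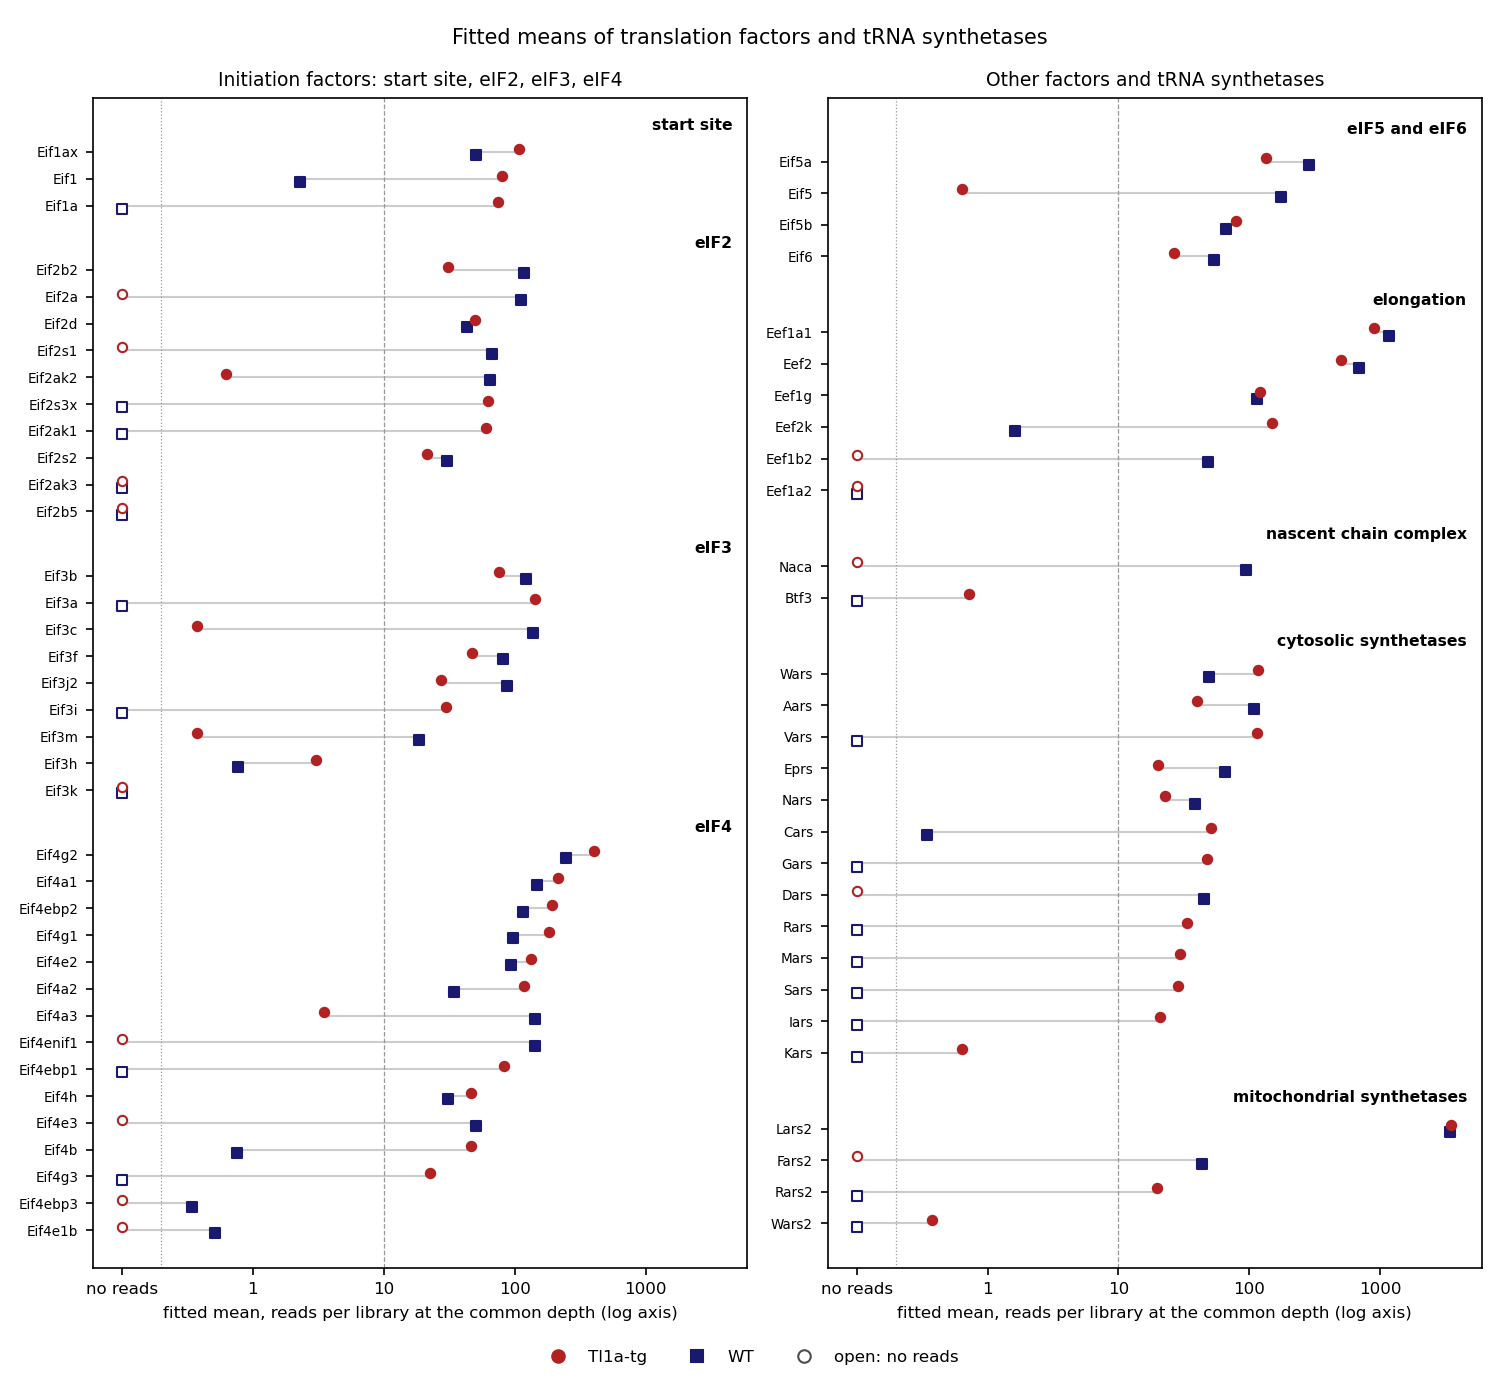
Fitted means of 66 of the 67 members (reads in a library of average depth, log axis), with Tl1a-tg as red circles and WT as blue squares, grouped by role. Open symbols in the left margin stand for a genotype without reads and have no place on the scale, and the dashed line marks a fitted mean of 10.

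Among synthetases, the mitochondrial leucyl-tRNA synthetase Lars2 had the highest level, with 3463 in Tl1a-tg against 3415 in WT (log2 fold change 0.02, SE 1.85, 95% interval -3.60 to 3.64). It held 85.9% of all synthetase means in Tl1a-tg and 90.7% in WT. Per kilobase of its longest coding transcript the level was 889 in Tl1a-tg against 877 in WT, above Eef1a1 with 503 in Tl1a-tg against 653 in WT and above Eef2 with 161 in Tl1a-tg against 223 in WT. No other synthetase exceeded 41.5 per kilobase, the level of Wars in Tl1a-tg. In GENCODE M21 transcripts, bases 3278 to 3349 of the 3894 bases of Lars2 matched Gm15564, annotated as an antisense gene, at 98.6% identity over 72 bases. A longer match, over 196 bases to AA474408, had 80.1% identity. The deposited table lists neither Gm15564 nor AA474408, and the part of shared reads in the level of Lars2 was not tested. Without Lars2 the synthetases summed to 570 in Tl1a-tg against 351 in WT.

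Of the 13 cytosolic synthetases, 7 had reads in Tl1a-tg only and 1 had reads in WT only. Among all genes with any read these classes made up 38.2% and 19.9%. Beside Vars, reads in Tl1a-tg only were found for Gars (glycine) at 47.5, Rars (arginine) at 33.5, Mars (methionine) at 29.4, Sars (serine) at 28.6, Iars (isoleucine) at 20.9 and Kars (lysine) at 0.641. Cars (cysteine) had 50.8 in Tl1a-tg and 1 read in a single WT library, and Dars (aspartate) had no reads in Tl1a-tg against 45.2 in WT. Of these genes Vars, Dars and Kars were given an adjusted p by DESeq2, and Vars alone passed the test. Of the 4 cytosolic synthetases measured in both genotypes, 1 had a positive log2 fold change, against 512 of all 1379 genes measured in both. Wars (tryptophan) had 117 in Tl1a-tg against 49.2 in WT, Aars (alanine) had 39.7 in Tl1a-tg against 109 in WT, Eprs (glutamate and proline) had 20.2 in Tl1a-tg against 65.6 in WT, and Nars (asparagine) had 22.5 in Tl1a-tg against 38.2 in WT. Their SE ranged from 3.93 to 4.25 on the log2 scale, and the authors' table leaves their p-values empty. Of other mitochondrial synthetases, Rars2 had 19.7 and Wars2 0.375 in Tl1a-tg with no reads in WT, and Fars2 had no reads in Tl1a-tg against 43.4 in WT.

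Several synthetase genes carry the response element bound by ATF4 and C/EBP proteins, through which amino acid shortage raises them, and the windows that hold it are shown for reference. Of the 13 cytosolic synthetases, all with reads in at least 1 genotype, 7 (53.8%) lacked WT reads. Among all genes with any read the share was 38.2%. The element, TGATGNAA, was searched on both strands from 250 bases before to 50 bases after the transcription start in RefSeq promoters (GRCm38.p6). It was present for 3 of the 12 synthetases with a promoter in the table (25.0%), for 2 of 39 factors (5.13%, Eef2k and Eif2s3x) and for 4.51% of all 27025 genes. The windows below are on the plus strand, 5′ to 3′, with the match in capitals, and the longer ones end before the start site. The short windows, of Aars and of Iars, hold matches past the start site.
Aars, chr8:111033704-111033763: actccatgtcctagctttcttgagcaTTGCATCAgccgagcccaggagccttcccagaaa
Aars past the start site, chr8:111033843-111033866: gggtcactTTTCATCAgagcgctc
Gars, chr6:55037945-55038000: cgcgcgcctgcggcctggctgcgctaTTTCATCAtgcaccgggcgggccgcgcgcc
Iars, chr13:49682129-49682152: tgtcagtaTTGCATCAcctccaga
The genes with the element lay on both sides: Gars and Iars had reads in Tl1a-tg only, while Aars had 39.7 in Tl1a-tg against 109 in WT. Atf4 itself had 68.2 in Tl1a-tg against 362 in WT (log2 fold change -2.41, SE 2.88, DESeq2 adjusted p 0.969). It is 1 of 7 stress response genes from a fixed list that were in the authors' table. Of the 5 with a mean of at least 10 over both genotypes, Atf4 alone had a negative log2 ratio of Tl1a-tg over WT. The other 4 were positive, and the median was 2.78, beside 0.66 for all genes with such a mean. Among these 4, Ppp1r15b had 62.7 in Tl1a-tg against 60.4 in WT. Vldlr (46.9 in Tl1a-tg against 0.509 in WT) and Atf5 (22.8 in Tl1a-tg against no reads) passed that filter through Tl1a-tg alone. Another 2 of the 7, Asns and Slc7a11, had reads in WT only and lay below that mean. A response through ATF4 was not tested. A match is a run of letters and not a measured binding site.

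Over the members with a mean of at least 10 over both genotypes, the median log2 ratio of Tl1a-tg over WT, taken as log2(fitted mean + 1), was 0.15 for 40 factors and 4.45 for 15 synthetases, beside 0.66 for all 4538 such genes. Of the factors, 12 lay above 2-fold and 13 below, and of the synthetases 9 above and 4 below. The background was 48.0% of all genes above and 35.0% below. Restricted to genes measured in both, the deposited log2 fold changes had a median of -0.76 over 5 synthetases, of opposite sign, and of 0.15 over 20 factors, beside -0.38 over all genes of that kind. No measured factor had a deposited p-value below 0.651, by DESeq2.

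**Figure D3:**
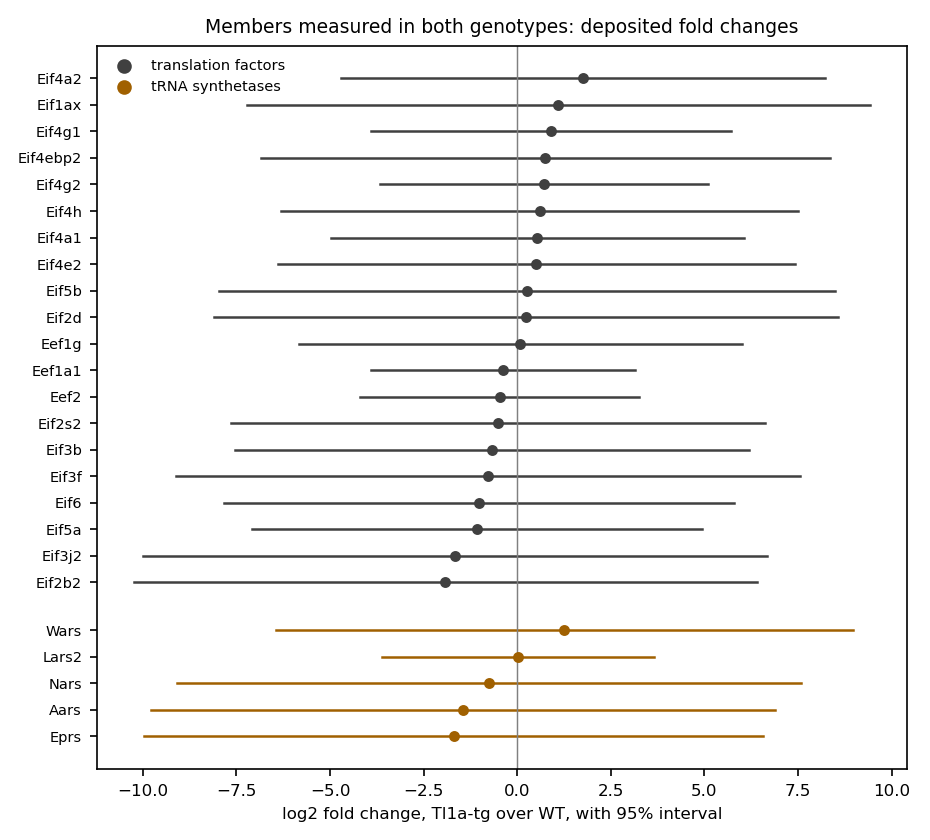
Deposited log2 fold change (Tl1a-tg over WT) and 95% interval for the 20 factors and 5 synthetases measured in both genotypes, ordered by value. Every interval spans 0, and the narrowest, that of Eef1a1, reaches from -3.91 to 3.16.

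The fitted means show in how many libraries a member's reads lay. The fit sets a mean to match the reads and the dispersion of a gene, so the number of reads that would give this mean if all lay in 1 library can be solved, and it comes out whole only where that holds or by chance. Chance gives a whole number in 0.18% of Tl1a-tg cases and in up to 9.89% of WT cases. Among members with a fitted mean of at least 10 where the solution could be judged, all Tl1a-tg reads lay in 1 library for 9 of 27 factors and 5 of 11 synthetases, together 36.8%, against 55.3% of all genes. All WT reads lay in 1 library for 13 of 22 factors and 4 of 6 synthetases, together 60.7%, against 64.3% of all genes. Of the 17 WT cases, 12 (70.6%) had their reads in replicate 1, against 54.6% of all such genes.

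Members measured in both genotypes and members found in 1 genotype only both included genes whose reads lay in 1 library. Of the 25 measured in both, 12 had all reads of at least 1 genotype in 1 library, among them Eif2d, Eif3f, Eif3j2 and Eif6 in each genotype, and 7 had reads in more than 1 library of both. Those 7 include Eprs, with 0, 116 and 1 reads in WT. Over all judged genes with a mean of at least 10, the share in 1 library was 55.3% in Tl1a-tg and 64.3% in WT. These shares are per genotype and were not split by the classes used here. Of the 18 members with reads in Tl1a-tg only, 9 had them in 1 library, 5 in more than 1 and 4 could not be judged. Those 5 include Sars, with 1, 92 and 1 reads. All Tl1a-tg reads of Eif4ebp1 were 272 reads in replicate 2, and those of Gars 144 reads in replicate 1. Eif3a, Eif2s3x and Eif2ak1, also without WT reads, had reads in more than 1 Tl1a-tg library. Cars, which had 1 WT read and is not among the 18, had all its Tl1a-tg reads, 119, in replicate 3. Of the 10 members with reads in WT only, 5 had them in 1 library, among them Eif2s1 with 119 reads in replicate 2 and Dars with 181 reads in replicate 1. Naca, Vars, Iars, Btf3, Eif2a, Eif4enif1 and Eif4e1b could not be judged, since the fit of a genotype with a mean near 0 is not exact.

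For 9 members shown here the deposited overall mean held nothing beyond these libraries, and the reads of all 6 could be solved with 1 solution each. Eif1ax had 201, 0 and 99 reads in Tl1a-tg replicates 1 to 3, and 203, 0 and 0 reads in WT replicates 1 to 3. Before scaling for depth the highest libraries of the genotypes were alike, and the others held no read or 99. Eprs had 0, 61 and 4 reads in Tl1a-tg, and 0, 116 and 1 in WT, so that replicate 2 held nearly all reads in both genotypes. Sars had 1, 92 and 1 reads in Tl1a-tg and none in WT, and Eif4e3 had none in Tl1a-tg and 1, 89 and 0 in WT. Another 5 had all reads in 1 of the 6 libraries: Eif1a 228 in Tl1a-tg replicate 1, Mars 97 in Tl1a-tg replicate 2, Eif3i 70 in Tl1a-tg replicate 3, and Eef1b2 195 and Fars2 174 in WT replicate 1. For each of these genes but Sars both genotypes held a library with no read, and for Sars the lowest Tl1a-tg library lay 1 read above WT. These 9 are the members that could be solved and shown, and the same count over all genes was not made.

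**Figure D4:**
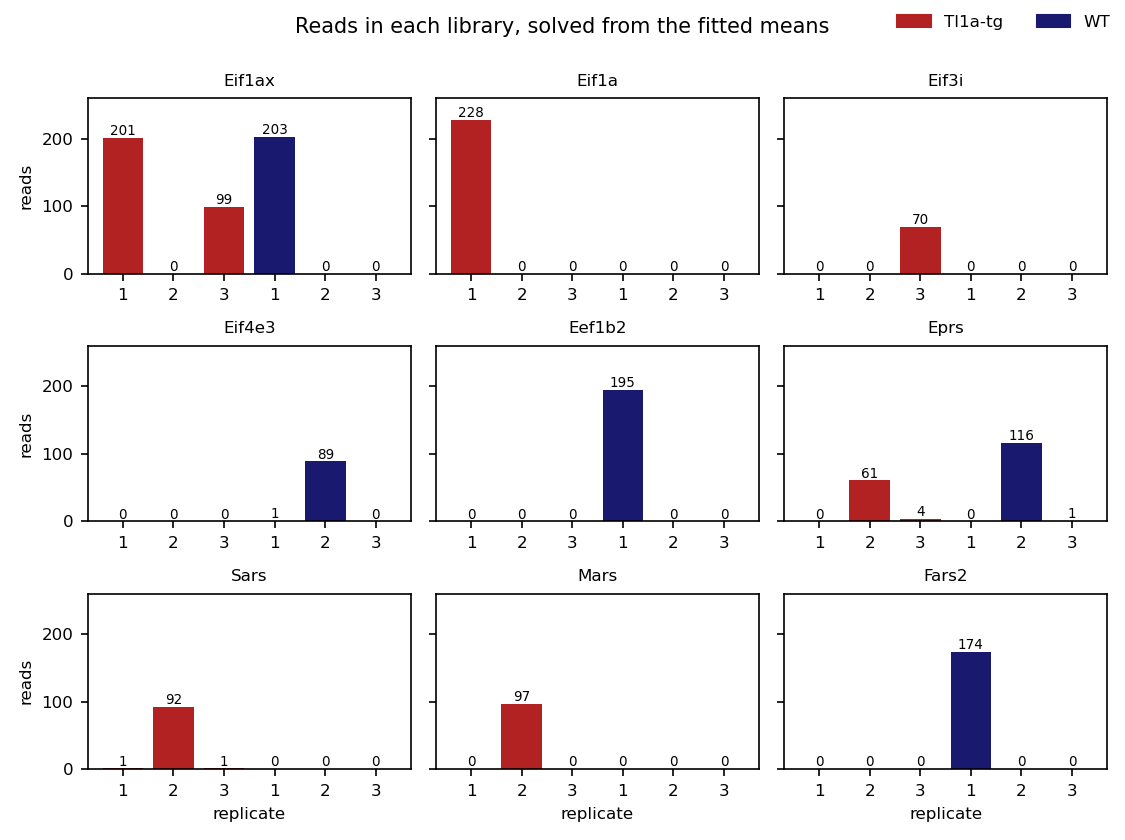
Reads in each library for the 9 members whose 6 counts could be solved, with Tl1a-tg replicates 1 to 3 in red and then WT replicates 1 to 3 in blue. In every panel but that of Sars at least 1 library of each genotype has no read, and in 5 panels all reads lie in 1 library.

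Of 80 other translation genes in a fixed list, 50 were in the table, and none was called by DESeq2 at an adjusted p below 0.05. A p-value was given for 19 of the 50. At an unadjusted p below 0.05 in the deposited DESeq2 table, 4 of these 19 were higher and 2 lower. The background was 14.6% of all genes with a p-value. The higher ones had no WT reads: Gigyf2, a cap-dependent repressor, had 111 in Tl1a-tg, Mknk2, a kinase of eIF4E, 117, Mtif2, a mitochondrial initiation factor, 69.2, and Tsc1, an inhibitor of the mTOR pathway, 70.9. The lower ones were Gspt1, the GTPase of translation termination, with 0.375 in Tl1a-tg against 128 in WT, and Farsb, the beta subunit of phenylalanyl-tRNA synthetase, with no reads in Tl1a-tg against 136 in WT. The best measured was Pabpc1, which binds the poly(A) tail, with 1474 in Tl1a-tg against 888 in WT (log2 fold change 0.73, SE 1.95, DESeq2 adjusted p 0.999). The chaperone Hspa8 had 179 in Tl1a-tg against 392 in WT, and Larp1, which binds mRNAs of the translation machinery, had 208 in Tl1a-tg against 89.8 in WT. Nupr1, a stress-induced gene, had 237 in Tl1a-tg against 33.5 in WT (log2 fold change 2.82, SE 3.48, DESeq2 adjusted p 0.994). The scaffold genes of the multi-synthetase complex, Aimp1 and Aimp2, had no reads in Tl1a-tg, and 43.9 and 39.5 in WT, where all of them (176 and 158 reads) lay in replicate 1. Farsa, the partner of Farsb, had no reads in either genotype. The helicase gene Ddx3x had 75.3 in Tl1a-tg against 130.0 in WT, Pdcd4, an inhibitor of eIF4A, had 74.9 in Tl1a-tg against 59.9 in WT, and the termination factor gene Etf1 had 58.4 in Tl1a-tg against 55.9 in WT. The median log2 ratio over the 34 of these genes with a mean of at least 10 was 0.06.

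The precision of the deposited fit limits each of these comparisons. The smallest SE of any member was 1.80, that of Eef1a1, whose 95% interval reaches 11.6-fold to either side of the estimate. For 32 of the 67 members (47.8%), and for 75.9% of all genes, the dispersion lay at its ceiling of 13, so that their SE does not estimate a measured spread. DESeq2 sets the ceiling to the number of libraries where that is above 10, so the authors' model held 13 libraries by this reading, and 7 beyond these 6 bear on each SE and p-value. The authors' table gives a p-value for 30 of the 67 members, against 36.2% of all genes.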

How the data were processed

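RNA from laser-microdissected crypts was sequenced as stranded mRNA libraries (Kapa kit), per the labels' protocols. Bowtie2 2.1.0, RSEM 1.2.15, FastQC, Trimmomatic and DESeq2 are named, with no role or order, per the submitters' processing notes. For genome build and annotation: not given in the sources used here. The first deposited table holds a signal per gene and library, which the values show to be 1 fitted mean per genotype times a library factor (relative range 1.78e-14 in Tl1a-tg and 1.82e-14 in WT). The limma test this unit would need has no residual spread here. The authors' deposited DESeq2 table holds a mean signal over libraries, log2 fold changes with SE, a Wald score, p-values (2580 genes) and adjusted p-values (1662 genes). Missing values were kept as missing. Another deposited table gives shrunken log2 fold changes.

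Library factors were scaled to a geometric mean of 1 and fitted means divided by them. Before that scaling, a genotype with no read gets 0.184 in a simulated fit with means held at 0.5 or more, and 1 read gives 0.358; means below 0.01 were also taken as no reads. Reads in 1 library were solved from the score equation of the fit, with the dispersion from the deposited SE (whole within 0.0003 reads for Tl1a-tg, and 0.002 beside the ridge term for WT, up to 1000 reads). This step was chosen after the data were seen and was tested on simulated data. Of 1372 genes solved to 1 Tl1a-tg library, 831 (60.6%) had a deposited overall mean equal to those reads, scaled for depth, over 13 libraries. Equal means within a relative difference of 1e-07. The depth scale was set to the most frequent ratio among these same genes, so this count is no independent check. Read depth is unknown, so no counting interval is given. Levels per kilobase use the longest coding transcript in GENCODE M21. Python 3.11.15, numpy 2.4.6, SciPy 1.17.1 and BLAST 2.17.0 were used.

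The members and lists were chosen with earlier results of these data known. Named are members with a deposited adjusted p, those measured in both genotypes and the 4 with the highest mean in each role, and of the other translation genes those with an adjusted p and the 4 highest. Other genes were named after their values were seen. Paired and leave-one-out fits were not possible. The values of 1 member are not reported here.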

Additional observations from a re-analysis of the deposited data

Results flagged for a closer look

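For 4 members the deposited mean over all libraries of the authors' model was at least 100 while these 6 libraries held under 5% of the total behind it, so a signal lies in libraries not analysed here. The deposited mean was 149 for Eif4e1b, of which 0.0232% lay in these libraries, and this gene had no reads in Tl1a-tg and a fitted mean of 0.517 in WT. It was 129 for Eif2s2 (2.71%), 568 for Eif4a1 (4.27%) and 405 for Eif4g1 (4.61%). These shares rest on the number of 13 libraries solved from the dispersion ceiling. Over the 67 members the median share was 55.1%, and 18 members had over 95% of the total in these libraries.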

How the results depend on the processing

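Calls: with near-0 means at the floor, 0 factors and 0 synthetases were called (0 of the 1662 genes by the recomputed DESeq2 values, 352 at an unadjusted p below 0.05). Adjusting over all genes with a p-value left 1 factor, 1 synthetase and 0 other translation genes called. An unadjusted p below 0.05 gave 6 of 26 factors, 1 of 4 synthetases and 6 of 19 other translation genes with a p-value. The background was 14.6% of all genes with a p-value.

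Median log2 ratios (factors 0.15, synthetases 4.45, other translation genes 0.06) moved as follows, in that order. The pseudocount of 10 gave 0.13, 1.63 and 0.050, and 0.5 gave 5.27 for synthetases. Without a filter they were 0.021, 2.69 and 0.037. With a mean of at least 50 they were -0.38, 0.63 and 0.054, so factors changed sign, as did the median of all genes (-0.47, against 0.66). With at least 10 in each genotype synthetases changed sign (-0.74), as did all genes (-0.37), and other translation genes had 0.054. Centring on all genes gave -0.51, 3.79 and -0.60, so factors and other translation genes changed sign. Equal totals without Rn45s gave 0.24, 4.50 and 0.15, and shrunken fold changes 0.021, 0.18 and 0.012. Leaving out members with all reads of a genotype in 1 library was chosen after seeing the data. It gave 0.078 for 21 factors, 4.45 for 7 synthetases and 0.40 for 14 other translation genes, and 0.057 for all genes. Synthetases that could not be judged, Vars and Iars, were kept. Sars and Eprs, with nearly all reads of a genotype in 1 library, were kept as well. Without Lars2 synthetases had 4.48. The cause of these shifts was not tested. Members with reads in 1 genotype only numbered 16 factors and 12 synthetases, and 19 to 21 factors and 11 synthetases when means below 1 or 5 counted as without reads. Before that change, 3400 of all 5846 genes with any read had reads in 1 genotype only.

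Judging WT members only where chance gave below 5% left 9 of 12 in 1 library, and a distance below 0.01 gave 10 of 14, against 17 of 28. In Tl1a-tg, 14 of 38 held at both other tolerances.

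No paired analysis was possible because the fitted means hold no value of their own for a library. For the same reason, leaving out a replicate was not run.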
